A study of Ambystoma mexicanum with 44 samples.

Results

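The genes LAMA1, COL4A5, COL7A1 and COL17A1 encode proteins of the epidermal basement membrane and of the structures that anchor the epidermis to it. They were taken as every probe set that the platform's annotation pairs with 1 of these 4 symbols, which gave 7 of the 20035 probe sets tested, and 4 of the 8639 genes named on the array. LAMA1 has 2 probe sets, COL7A1 has 3, and COL4A5 and COL17A1 have 1 each. Where a gene has several, the probe set with the highest mean over all arrays stands for it, and the others are given separately.

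The samples were epidermis of axolotls (Ambystoma mexicanum), with the cells that came away with it, and each of the 44 arrays held RNA from 1 animal, pooled from 2 harvests. There were 11 groups of 4 animals. Flank skin was taken uninjured (day 0) and at days 1, 3 and 7 after a full thickness biopsy punch. Forelimb epidermis was taken uninjured and at days 1, 3 and 7 after amputation just above the elbow with the nerves intact (innervated limb), and at days 1, 3 and 7 after amputation of limbs whose brachial nerves had been cut (denervated limb). Day 0 is uninjured by the series text, although the descriptions of the day 0 arrays are worded like those of the injured arrays. Strain, age, sex and array batch are not given in the sources used here. No denervated arrays of day 0 are among the samples, so both limb courses are set against the same 4 uninjured innervated limbs and share the error of those arrays. Denervation was a cut through the brachial nerves where they enter the limb. The 4 arrays of a group are biological replicates by their labels.

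The basement membrane is the thin sheet of matrix on which the basal cells of the epidermis sit. Laminins, trimers of an alpha, a beta and a gamma chain, polymerise at the cell surface, and type IV collagen forms a second network that is bound to them by linker proteins. Hemidesmosomes, of which the transmembrane collagen XVII is a part, tie the keratin filaments of basal cells to this sheet, and anchoring fibrils of type VII collagen tie the sheet to the dermis below. An axolotl regrows an amputated limb while its nerves are intact, a denervated stump and a flank wound close without regrowth, and the migrating wound epidermis of amphibians at first covers the wound without a complete basement membrane.

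Values are log2 expression levels, deposited with 2 decimals, between 2.41 and 15.04 over all arrays. The array medians lay between 5.61 and 5.73. A difference was called at a Benjamini-Hochberg adjusted p under 0.05 over all 20035 probe sets in a limma fit to the 44 arrays. The verbs rise and fall stand below for called differences alone, and a level or difference that was not called is given by its value. Of 25 epidermis markers 17 were measured, and KRT8 (13.66 to 14.37), CDH1 (12.0 to 13.06) and EPCAM (12.43 to 13.88) were high on every array. Other epidermis markers were lower, among them TP63 (6.15 to 8.07), GRHL2 (4.28 to 6.27) and PKP2 (3.24 to 4.06), and KRT5 and KRT14 have no named probe set here. Some markers of other cells were high on some or all arrays. Of 18 dermal fibroblast markers, COL1A1 ranged from 10.8 to 13.93. The fibroblast markers PDGFRA (3.41 to 4.23), PDGFRB (3.61 to 4.21), PRRX1 (3.82 to 4.54) and THY1 (3.89 to 4.89) were low throughout. The fibroblast marker means below include the high and the low markers. Of 15 skeletal muscle markers, MYL1 ranged from 3.38 to 14.23 and RYR1 from 3.81 to 4.5. Of 11 myeloid markers, LYZ ranged from 11.57 to 14.2 and ITGB2 from 3.69 to 4.81. Of 9 endothelial markers, VWF ranged from 4.44 to 8.94, EGFL7 from 4.38 to 6.58 and PECAM1 from 3.85 to 5.99. The endothelial markers CDH5 (3.39 to 4.62) and TIE1 (3.14 to 3.74) stayed near the low end of the scale.

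All 4 genes were higher in injured than in uninjured epidermis of limb and flank, but on different days. LAMA1 had no called change at day 1 and was higher from day 3 on, and COL4A5 and COL17A1 had most of their rise by day 1. COL7A1 stood higher at each sampling than at the one before, with 8 of these 9 steps called. Of the 36 changes from day 0 (4 genes in 3 courses on 3 days), 33 passed as rises and 0 as falls, and the 3 that did not pass were LAMA1 at day 1. The LAMA1 rises rest on the probe set that stands for it. Its other probe set (values of 4.05 to 4.79) had no called change at days 3 and 7. On day 1, 3 of the 4 genes rose in each course, where 14.7% of all probe sets rose in the innervated limb, 14.1% in the denervated limb and 20% in the flank. On days 3 and 7 all 4 rose in each course, against 12.5% and 12.8% of all probe sets in the innervated limb, 12.4% and 13.1% in the denervated limb, and 12.6% and 11.5% in the flank. The 4 genes were chosen with earlier results of these data known, so these counts describe them and test nothing. In such bulk samples more cells of a type and more RNA per cell cannot be told apart.

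**Figure D1:**
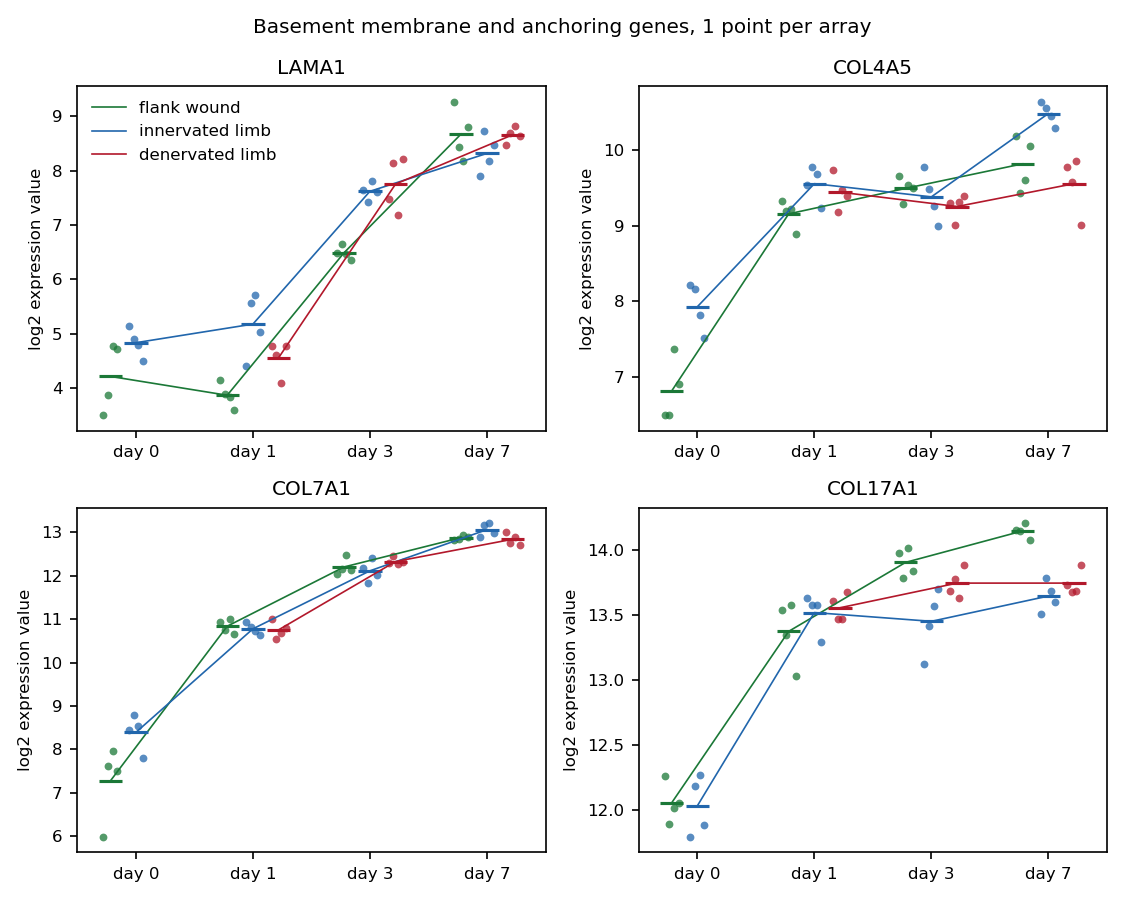
Log2 expression level (vertical axes) of LAMA1, COL4A5, COL7A1 and COL17A1 by day after injury (horizontal axes), with a point for each of the 44 arrays, a short bar at each group mean (n = 4) and a line through the means of each course. LAMA1 lies at or below 5.71 through day 1 and between 7.9 and 9.27 at day 7, while COL17A1 is already at or above 13.03 at day 1 in every course.

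LAMA1, the laminin alpha chain that in mammals is used mainly in embryonic basement membranes, was followed first. In the uninjured limb its level was 5.15, 4.91, 4.79 and 4.49, and in the uninjured flank it was 3.5, 3.87, 4.78 and 4.71. At day 1 the innervated limb had 4.4, 5.56, 5.71 and 5.04, the denervated limb 4.77, 4.6, 4.1 and 4.77, and the flank 4.14, 3.9, 3.83 and 3.6. The arrays of day 1 overlapped those of day 0 in each course, and the changes of 0.34, −0.28 and −0.35 (SE 0.26) did not pass in limma (adjusted p = 0.347, 0.478 and 0.306).

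At day 3 the LAMA1 level was 7.64, 7.43, 7.81 and 7.6 in the innervated limb and 7.47, 8.15, 7.18 and 8.22 in the denervated limb. In the flank it was 6.49, 6.66, 6.46 and 6.36. Every array of day 3 stood above every array of days 0 and 1 of its course. The step from day 1 to day 3 was 2.44 ± 0.26 in the innervated limb, 3.20 ± 0.26 in the denervated limb and 2.63 ± 0.26 in the flank (adjusted p = 5.43e-09, 9.2e-12 and 7.85e-10), a 5.44-fold, 9.16-fold and 6.17-fold difference.

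At day 7 the LAMA1 level was 7.9, 8.73, 8.17 and 8.47 in the innervated limb and 8.47, 8.7, 8.83 and 8.64 in the denervated limb. In the flank it was 9.27, 8.44, 8.18 and 8.81. The flank therefore gained 2.18 ± 0.26 between days 3 and 7 (adjusted p = 3.35e-07), while the denervated limb gained 0.91 ± 0.26 (adjusted p = 0.0301) and the innervated limb 0.70 ± 0.26, which did not pass (adjusted p = 0.173). The denervated gain lost its call without any of 5 arrays in turn (denervated day 3 replicates 1 and 3 and denervated day 7 replicates 2, 3 and 4), with a highest adjusted p of 0.146. It was also not called when only the arrays compared were fitted (adjusted p = 0.0728), with the 3 arrays richest in muscle transcripts left out (0.71, adjusted p = 0.143) or with the mean of both probe sets (0.42, adjusted p = 0.118), whereas with array weights the innervated gain was called (0.72, adjusted p = 0.0455). Against day 0 the day 7 level was higher by 3.48 ± 0.26 in the innervated limb (11.2-fold), 3.83 ± 0.26 in the denervated limb (14.2-fold) and 4.46 ± 0.26 in the flank (22-fold). These are ratios of the deposited values, and the uninjured levels lay near the 25th percentile of all values (4.08), where the height above background is not known here. At day 1 LAMA1 stood at 9.8% of its day 7 log2 change in the innervated limb, −7.2% in the denervated limb and −7.8% in the flank.

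Ordered by group mean, LAMA1 was highest in the flank at day 7 (8.68), then in the denervated limb (8.66) and innervated limb (8.32) at day 7, the denervated (7.76) and innervated (7.62) limb at day 3, and the flank at day 3 (6.49). Below these came the innervated limb at day 1 (5.18) and day 0 (4.84), the denervated limb at day 1 (4.56), and the flank at day 0 (4.22) and day 1 (3.87). Of the 10 pairs of neighbours in this order 2 passed, namely the innervated limb over the flank at day 3 and the flank at day 3 over the innervated limb at day 1.

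COL4A5, a type IV collagen chain that in mammalian skin is built into the basement membrane together with the chain of COL4A6, had its main rise within a day. In the uninjured limb its level was 8.22, 8.16, 7.82 and 7.51, and in the uninjured flank 6.49, 6.49, 7.37 and 6.9, with no overlap between them. At day 1 it was 9.54, 9.77, 9.68 and 9.23 in the innervated limb, 9.73, 9.18, 9.47 and 9.39 in the denervated limb, and 9.32, 9.19, 9.22 and 8.89 in the flank. Every injured array was thus above every uninjured array. The rises by day 1 were 1.63 ± 0.19, 1.52 ± 0.19 and 2.34 ± 0.19 (adjusted p = 1.38e-08, 6.27e-08 and 2.81e-12), a 3.09-fold, 2.86-fold and 5.07-fold difference.

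Between days 1 and 3 COL4A5 had no called change in any course (differences of −0.18, −0.19 and 0.34, SE 0.19). At day 3 the level was 9.78, 9.49, 9.26 and 8.99 in the innervated limb, 9.3, 9.01, 9.31 and 9.39 in the denervated limb, and 9.65, 9.28, 9.54 and 9.5 in the flank. At day 7 it was 10.64, 10.55, 10.45 and 10.29 in the innervated limb, 9.78, 9.58, 9.85 and 9.01 in the denervated limb, and 10.18, 9.43, 9.61 and 10.05 in the flank. All 4 innervated arrays of day 7 stood above every other array of the study. The step from day 3 to day 7 was 1.10 ± 0.19 in the innervated limb (adjusted p = 0.000412). It was 0.30 ± 0.19 in the denervated limb and 0.33 ± 0.19 in the flank, and neither passed (adjusted p = 0.457 and 0.335). The innervated and denervated steps were not shown to differ (0.80 ± 0.28, limma adjusted p = 0.437), and those of limb and flank were not compared. At day 1 COL4A5 had 63.7% of its day 7 log2 rise in the innervated limb, 93.1% in the denervated limb and 78% in the flank.

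In the order of the COL4A5 group means, the innervated limb at day 7 (10.48) passed against its neighbour, the flank at day 7 (9.82). The next 7 groups, from the denervated limb at day 7 (9.56) down to the flank at day 1 (9.16), formed a run in which no difference between neighbours passed, nor did that between the flank at day 7 and the top of the run. The uninjured limb (7.93) lay 1.23 ± 0.19 below the flank at day 1, and the uninjured flank (6.81) was lowest.

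COL7A1, the collagen of the anchoring fibrils, had the largest log2 rises among the 4 genes in each course at days 1, 3 and 7 by its probe set of highest mean, though not by the other 2 (at day 1 in the innervated limb they rose by 1.24 and 0.54). In the uninjured limb its level was 8.44, 8.8, 8.54 and 7.8, and in the uninjured flank 5.99, 7.63, 7.96 and 7.51. At day 1 it was 10.93, 10.83, 10.72 and 10.63 in the innervated limb, 11.01, 10.54, 10.68 and 10.79 in the denervated limb, and 10.94, 10.75, 11.01 and 10.65 in the flank. All 12 arrays of day 1 therefore lay between 10.54 and 11.01, after starting from uninjured levels between 5.99 and 8.8. The rises by day 1 were 2.38 ± 0.22, 2.36 ± 0.22 and 3.57 ± 0.22 (5.21-fold, 5.13-fold and 11.8-fold, adjusted p = 6.91e-11, 9.26e-11 and 1.97e-15).

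At day 3 the COL7A1 level was 12.18, 11.84, 12.41 and 12.02 in the innervated limb, 12.29, 12.45, 12.26 and 12.31 in the denervated limb, and 12.04, 12.16, 12.47 and 12.14 in the flank. At day 7 it was 12.89, 13.16, 13.21 and 12.98 in the innervated limb, 13, 12.75, 12.9 and 12.71 in the denervated limb, and 12.83, 12.85, 12.93 and 12.9 in the flank. In every course the arrays of each sampling were all above those of the sampling before. The step from day 1 to day 3 was 1.34 ± 0.22, 1.57 ± 0.22 and 1.37 ± 0.22 in the innervated limb, denervated limb and flank (adjusted p = 1.59e-05, 8.09e-07 and 8.9e-06). The step from day 3 to day 7 was 0.95 ± 0.22 in the innervated limb (adjusted p = 0.00982) and 0.68 ± 0.22 in the flank (adjusted p = 0.0402). The flank step lost its call without any of 7 arrays in turn, flank day 3 replicates 1, 2 and 4 and the 4 flank arrays of day 7, with a highest adjusted p of 0.107. In the denervated limb that step was 0.51 ± 0.22 and did not pass (adjusted p = 0.201), though it passed without flank day 0 replicate 1, with a shared SE of 0.14 (adjusted p = 0.0205). It also passed when only the arrays compared were fitted (adjusted p = 0.0191), with axo10791-f_at (0.59, adjusted p = 0.00296) and with the mean of the probe sets (0.49, adjusted p = 0.0213).

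By day 7 COL7A1 had risen by 4.67 ± 0.22 in the innervated limb (25.4-fold), 4.45 ± 0.22 in the denervated limb (21.8-fold) and 5.61 ± 0.22 in the flank (48.7-fold), the last of which was 5.18 ± 0.15 without flank day 0 replicate 1. In the order of its group means the 3 groups of day 7 came first (13.06, 12.88 and 12.84), then the 3 of day 3 (12.33, 12.2 and 12.11), the 3 of day 1 (10.84, 10.78 and 10.76), the uninjured limb (8.40) and the uninjured flank (7.27). Neighbours differed between days 3 and 1, between day 1 and the uninjured limb, and between the 2 uninjured groups, and no pair of neighbours of the same day after injury did.

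COL17A1, the transmembrane collagen of the hemidesmosome, rose early, and by less than COL7A1 in each course on each day by the probe sets that stand for the genes. Its level was 11.79, 12.18, 12.27 and 11.88 in the uninjured limb and 12.26, 11.89, 12.01 and 12.05 in the uninjured flank. At day 1 it was 13.63, 13.58, 13.58 and 13.29 in the innervated limb, 13.61, 13.47, 13.47 and 13.68 in the denervated limb, and 13.54, 13.35, 13.58 and 13.03 in the flank. The uninjured groups overlapped, and every injured array was above every uninjured array. The rises were 1.49 ± 0.11, 1.53 ± 0.11 and 1.32 ± 0.11 (2.81-fold, 2.88-fold and 2.5-fold, adjusted p = 5.67e-13, 2.8e-13 and 7.6e-12).

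At day 3 the COL17A1 level was 13.12, 13.42, 13.57 and 13.7 in the innervated limb, 13.69, 13.78, 13.63 and 13.89 in the denervated limb, and 13.98, 13.79, 14.02 and 13.84 in the flank. At day 7 it was 13.51, 13.79, 13.69 and 13.6 in the innervated limb, 13.73, 13.68, 13.69 and 13.89 in the denervated limb, and 14.16, 14.15, 14.21 and 14.08 in the flank. The flank arrays of day 7 were all above those of every other group. The only step after day 1 that passed was from day 1 to day 3 in the flank, 0.53 ± 0.11 (adjusted p = 0.000412), and in the innervated limb the step from day 1 to day 7 is the sum of −0.07 ± 0.11 and 0.20 ± 0.11, neither of which passed. At day 1 COL17A1 had 92.1% of its day 7 log2 rise in the innervated limb, 88.9% in the denervated limb and 63.1% in the flank. In the order of its 11 group means, from 14.15 in the flank at day 7 to 12.03 in the uninjured limb, only the flank at day 1 (13.38) over the uninjured flank (12.05) differed between neighbours. On these arrays 95% of all values were at or under 11.21, so that every COL17A1 value lay in the top of the scale, and saturation was not assessed here.

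Of all probe sets, 15.8% rose from day 1 to day 3 in the innervated limb, 15.7% in the denervated limb and 14.1% in the flank, where 2, 2 and 3 of the 4 genes rose. From day 3 to day 7 the shares were 1.83%, 3.85% and 7.81%, and 2, 1 and 2 of the 4 genes rose. Markers of other cell types moved on the same days. Of 11 myeloid markers, 6 to 10 rose against day 0 in each of the 9 comparisons, and of 18 fibroblast markers 3 to 6 rose. Of 15 muscle markers 8 rose in the innervated and 5 in the denervated limb at day 1, and 12 fell in the flank at day 7. Of 17 epidermis markers 6 to 10 rose and 3 to 5 fell. In the flank 10 of the 18 fibroblast markers fell at day 1 and 8 at day 3. The mean level of the fibroblast markers per array was 7.92 to 9.92 in the uninjured flank, 7.41 to 8.02 at day 1, 7.75 to 8.21 at day 3 and 9.02 to 9.84 at day 7. In the limb the same mean was 8.26 to 8.85 uninjured and 8.27 to 9.55 at day 7 in the denervated and 7.98 to 9.19 in the innervated course. From day 3 to day 7, when flank LAMA1 rose by 2.18, 9 of 18 fibroblast markers rose in the flank, 1 in the innervated and 2 in the denervated limb. From day 1 to day 3, when LAMA1 rose in every course, 0, 1 and 3 of 18 rose in the innervated limb, denervated limb and flank, and 2, 1 and 0 fell. The myeloid mean was 7.09 to 7.54 in the uninjured groups and 7.85 to 8.91 in the injured groups. The part of these cells in the rises was not tested.

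The nerve supply was addressed by comparing innervated with denervated limb on the same day. COL4A5 at day 7 was the only 1 of 12 such comparisons of the 4 genes that passed. All 4 innervated values (10.29 to 10.64) were above all 4 denervated values (9.01 to 9.85), a difference of 0.93 ± 0.19 or 1.9-fold (adjusted p = 0.00832). At day 7, 0.804% of all probe sets were higher and 0.893% lower in the innervated limb. The call ended without innervated day 7 replicate 1 (difference 0.88 ± 0.21, adjusted p = 0.0553), the highest adjusted p with any array of the study left out, the lowest being 0.00524.

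On days 1 and 3 the nerve difference of COL4A5 was 0.11 ± 0.19 and 0.13 ± 0.19, and the groups overlapped. Its growth from day 1 to day 7 (0.82 ± 0.28) and from day 3 to day 7 (0.80 ± 0.28) did not pass (adjusted p = 0.179 and 0.437), so that the day 7 difference is not shown to differ from that of earlier days. In these 2 comparisons 0.255% and 0.00499% of all probe sets were called upward and 0.349% and 0.0499% downward. Of the other cell types, 0 of 18 fibroblast, 15 muscle, 9 endothelial, 5 Schwann cell and 17 epidermis markers were called in limma between innervated and denervated limb at day 7, and 2 of 11 myeloid markers were lower in the innervated limb. The myeloid mean was 8.0 to 8.57 on the innervated and 8.76 to 8.91 on the denervated arrays of day 7, and its part in the COL4A5 difference was not tested.

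LAMA1 differed between innervated and denervated limb by 0.62 ± 0.26 at day 1, −0.14 ± 0.26 at day 3 and −0.34 ± 0.26 at day 7 (95% interval at day 7 from −0.88 to 0.19), and none passed. For COL7A1 the differences were 0.02, −0.22 and 0.22 (SE 0.22, interval at day 7 from −0.23 to 0.67). For COL17A1 they were −0.04, −0.30 and −0.10 (SE 0.11, interval at day 7 from −0.33 to 0.13). With 0 of the 4 genes called by limma on day 1 and on day 3, 1 gene had an unadjusted p under 0.05 on each of these days (LAMA1 0.0252 and COL17A1 0.0143). The share of all probe sets at that unadjusted threshold was not computed. Few probe sets separated the nerve conditions on these days at all, with 0.015% higher and 0.00499% lower at day 1, and 0.23% and 0.0349% at day 3.

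**Figure D2:**
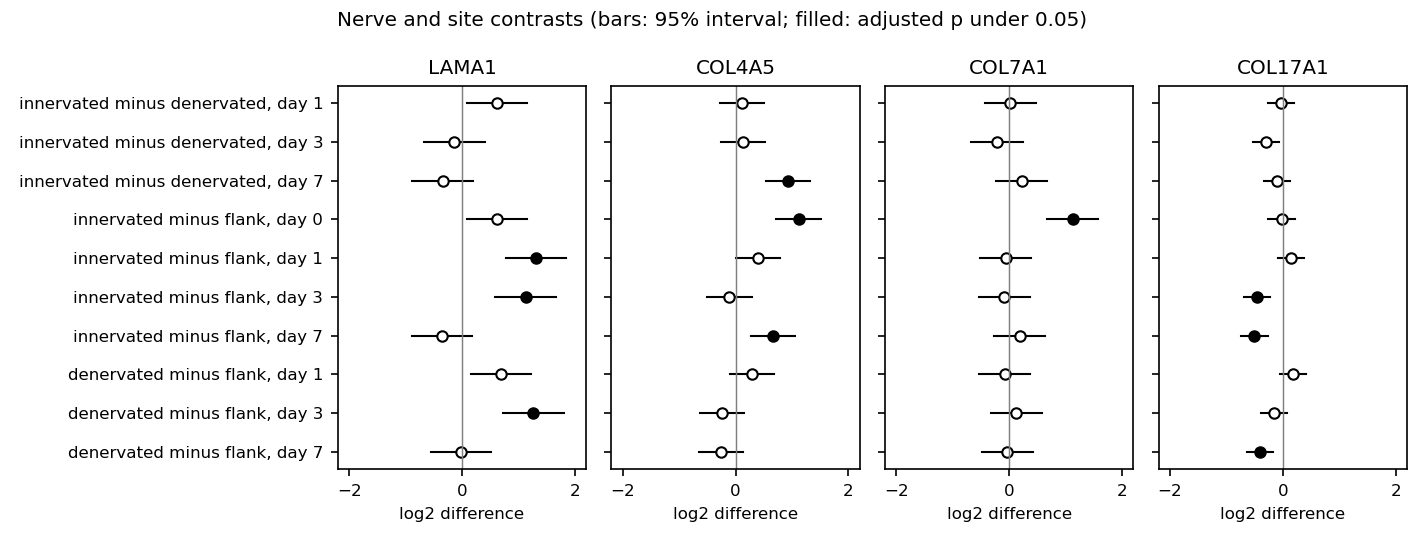
Log2 differences (horizontal axes) of the 4 genes between innervated and denervated limb and between limb and flank on each day, with bars of the 95% interval (n = 4 arrays a group) and filled points for an adjusted p under 0.05. Each gene is shown by its probe set of highest mean. The nerve difference of COL4A5 at day 7 is filled at 0.93, and the limb stands above the flank before injury for COL4A5 (1.12) and COL7A1 (1.12). The further COL7A1 probe sets, not shown, had no called difference before injury.

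Before injury COL4A5 and COL7A1 were higher in the limb than in the flank by the probe sets that stand for them. COL4A5 was higher by 1.12 ± 0.19 (2.17-fold, adjusted p = 0.00029) without overlap, and COL7A1 by 1.12 ± 0.22 (2.18-fold, adjusted p = 0.00166), with the lowest limb value (7.8) below the highest flank value (7.96). The other 2 COL7A1 probe sets were not called in limma (0.43, adjusted p = 0.0692, and 0.03, adjusted p = 0.941). At day 0, 1.9% of all probe sets were higher and 2.46% lower in the limb than in the flank. LAMA1 was higher by 0.62 ± 0.26 (adjusted p = 0.199) and COL17A1 differed by −0.02 ± 0.11 (adjusted p = 0.951). Markers of other cells differed too, with 3 of 15 muscle markers (median difference over the 15 of −2.66), 2 of 18 fibroblast and 2 of 9 endothelial markers lower in the limb. Their part in the differences of COL4A5 and COL7A1 was not tested.

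The COL7A1 difference before injury leaned on flank day 0 replicate 1, which had 5.99 where the other 3 flank arrays had 7.51 to 7.96. Without it the difference was 0.70 ± 0.15 (adjusted p = 0.00445). That array also had the lowest fibroblast marker mean of its group, 7.92 against 9.18 to 9.92 on the other 3, and the part of this in its low value was not tested. When only the 8 uninjured arrays were fitted, neither difference passed (adjusted p = 0.0788 for COL4A5 and 0.257 for COL7A1), at the same sizes.

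After injury limb and flank were closer in these genes by the probe sets that stand for them, and other differences were called. With the other COL7A1 probe sets this did not hold alike. With axo10791-f_at the innervated limb minus flank difference was 0.03 before injury and 0.48 at day 7 (limma adjusted p = 0.0123). With axo10788-r_at it was 0.43 before injury, and the day 7 means were 10.295 in the innervated limb and 9.955 in the flank. By the probe sets that stand for the genes, the innervated limb minus flank difference of COL7A1 was −0.06, −0.09 and 0.18 on days 1, 3 and 7 (SE 0.22). That of COL4A5 was 0.40 and −0.11 on days 1 and 3 (SE 0.19), and none of these was called. COL4A5 was higher in the innervated limb than in the flank at day 7 by 0.67 ± 0.19 (adjusted p = 0.0231). That call ended without any of 4 arrays in turn (innervated day 7 replicates 1 and 2 and flank day 7 replicates 2 and 3, highest adjusted p = 0.112). The denervated limb differed from the flank at day 7 by −0.26 ± 0.19 in COL4A5 (adjusted p = 0.538).

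LAMA1 was higher in the limb than in the flank at the early samplings. At day 1 the innervated limb was higher by 1.31 ± 0.26 (2.48-fold, adjusted p = 0.00178), with no overlap (4.4 to 5.71 against 3.6 to 4.14), and the denervated limb by 0.69 ± 0.26, which did not pass (adjusted p = 0.166). At day 3 both limbs were higher, by 1.13 ± 0.26 and 1.26 ± 0.26 (adjusted p = 0.00588 and 0.00189), and at day 7 the differences were −0.36 and −0.02 (SE 0.26), neither of them called. The innervated call at day 1 ended when only the arrays compared were fitted (adjusted p = 0.0874), and with the other LAMA1 probe set the differences were −0.11 at day 1 and 0.12 and 0.15 at day 3, none of them called. Fibroblast markers were read in the same contrasts. At day 1, 10 of 18 were higher in the innervated limb than in the flank and 2 of 18 in the denervated limb (median differences 1.026 and 0.785). At day 3, 4 and 3 of 18 were higher and 0 and 1 lower (medians 0.136 and 0.163). At day 7, 0 and 0 were called (medians −0.414 and −0.252). Before injury 2 of 18 were lower and 0 higher in the limb (median −0.368). Markers of other cells differed as well. At day 1, 2 of 9 endothelial and 2 of 5 Schwann cell markers were higher in the innervated limb, and 0 lower. At day 3, 3 of 9 endothelial markers were higher in the denervated limb, and 0 lower. Within groups, the deviations of LAMA1 and of the fibroblast marker mean had a correlation of r = 0.426 over the 44 arrays, which share the labelling and normalization of each array. The groups were not alike in this. The array of lowest fibroblast mean had the lowest LAMA1 in the uninjured flank (7.92 and 3.5), innervated limb at day 1 (7.75 and 4.4) and flank at day 7. It had the highest LAMA1 in the uninjured limb, the flank at day 1 and both limbs at day 7, and neither in the other groups. The correlation was not recomputed without single arrays or groups. With the other marker lists r was 0.251 (endothelium), 0.069 (Schwann cell), −0.057 (myeloid), −0.108 (muscle) and −0.202 (epidermis). The part of these cells in the LAMA1 difference was not tested.

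COL17A1 was lower in the limb than in the flank at the later samplings. The difference was −0.46 ± 0.11 at day 3 (adjusted p = 0.0109) and −0.50 ± 0.11 at day 7 (adjusted p = 0.003) for the innervated limb, and −0.40 ± 0.11 at day 7 (adjusted p = 0.0233) for the denervated limb, each without overlap. In the denervated limb at day 3 it was −0.16 ± 0.11 (adjusted p = 0.496). The innervated call at day 3 ended without innervated day 3 replicate 1 (−0.34, adjusted p = 0.084) and when only the arrays compared were fitted (adjusted p = 0.0677). The denervated call at day 7 ended without any of 5 arrays in turn, namely denervated day 7 replicates 1, 2 and 3 and flank day 7 replicates 1 and 3 (highest adjusted p = 0.0668).

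Over all probe sets the innervated limb was higher than the flank in 2.57%, 3.84% and 4.03% and lower in 2.36%, 2.4% and 5.29% at days 1, 3 and 7. For the denervated limb the shares were 0.998%, 3.59% and 3.41% higher and 1.33%, 2.74% and 3.78% lower. Of the 4 genes, 1, 1 and 1 were higher and 0, 1 and 1 lower in the innervated limb, and 0, 1 and 0 higher and 0, 0 and 1 lower in the denervated limb.

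The rise itself was compared between limb and flank as a difference of the changes from day 0. COL4A5 rose less in the limb than in the flank by 1.23 ± 0.28 at day 3 in the innervated course (difference −1.23, adjusted p = 0.00777) and by 1.36 ± 0.28 and 1.38 ± 0.28 at days 3 and 7 in the denervated course (differences −1.36 and −1.38, adjusted p = 0.00262 and 0.0021). COL7A1 rose less at days 1 and 3 in the innervated limb (−1.18 ± 0.32 and −1.21 ± 0.32, adjusted p = 0.0228 and 0.0255) and at days 1 and 7 in the denervated limb (−1.21 ± 0.32 and −1.16 ± 0.32, adjusted p = 0.0315 and 0.0289). Both genes began lower in the flank by the probe sets that stand for them, and these differences contain the difference at day 0 with its sign turned. With the other COL7A1 probe sets neither the day 0 difference nor these differences of changes were called. In the innervated comparison 1, 2 and 0 of the 4 genes were called downward at days 1, 3 and 7, against 2.43%, 1.18% and 1.99% of all probe sets. At day 7, 3 of the 4 had an unadjusted p under 0.05 in limma, a threshold at which the share of all probe sets was not computed. In the denervated comparison 1, 1 and 2 were called downward, against 0.938%, 1.58% and 1.91%. Markers of other cells differed in the same contrasts. At day 1, 8 of 18 fibroblast (median 1.93), 4 of 9 endothelial and 2 of 15 muscle markers were called upward in the innervated comparison, and 4 fibroblast (median 1.53) and 2 endothelial markers in the denervated one. At day 3, 3 and 2 of the fibroblast markers were called upward, and at day 7 the fibroblast medians were −0.08 and 0.06. Their part in the smaller rises of COL4A5 and COL7A1 was not tested.

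The 4 COL7A1 differences of changes shrank to −0.76, −0.79, −0.78 and −0.73 (SE 0.21) without flank day 0 replicate 1 and still passed (adjusted p = 0.0238, 0.0267, 0.0295 and 0.0372). Each of the 4 lost its call without innervated day 0 replicate 2 (adjusted p = 0.062, 0.074, 0.08 and 0.0769). The innervated one of day 3 also lost it without innervated day 3 replicate 2 or flank day 3 replicate 3. The denervated one of day 1 also lost it without innervated day 0 replicate 1 or 3, denervated day 1 replicate 2, 3 or 4, or flank day 1 replicate 3, and that of day 7 without innervated day 0 replicate 3, denervated day 7 replicate 4 or flank day 7 replicate 3. The 2 COL7A1 differences that missed the threshold (−0.94 at day 7 in the innervated and −0.998 at day 3 in the denervated limb, adjusted p = 0.0954 and 0.0654) passed without flank day 0 replicate 3 or innervated day 0 replicate 4 (−1.17 and −1.14 for the first, −1.23 and −1.20 for the second), and the second also without flank day 0 replicate 2 (−1.12). The 3 differences of COL4A5 passed with every array left out in turn, and a further one, −0.83 at day 1 in the denervated limb (adjusted p = 0.103), passed without flank day 0 replicate 3 (−1.01, adjusted p = 0.0407). LAMA1 (−0.98 to 0.69) and COL17A1 (−0.48 to 0.21) had no called difference of changes in limma over the 3 days and both limbs, though LAMA1 at day 7 in the innervated limb (−0.98 ± 0.37) had an adjusted p of 0.159 and an unadjusted p of 0.013. COL17A1 at day 7 in the innervated limb (−0.48, adjusted p = 0.0963) passed without innervated day 0 replicate 1 (−0.56, adjusted p = 0.0435).

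**Figure D3:**
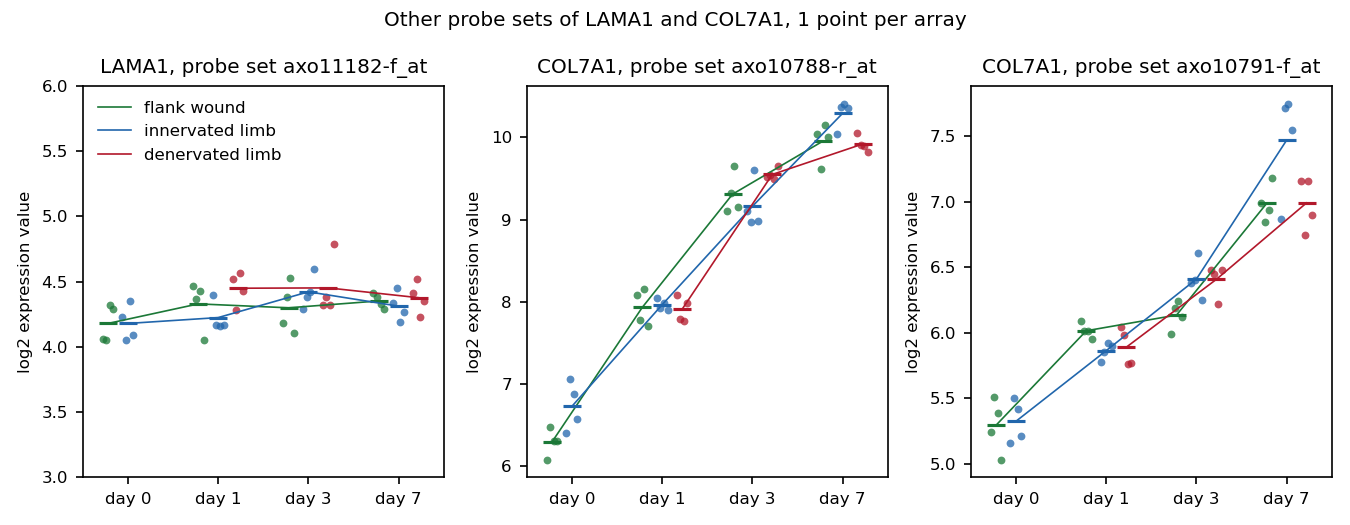
Log2 expression level (vertical axes) by day after injury (horizontal axes) for the further probe sets of LAMA1 and COL7A1, with a point for each array, a short bar at each group mean (n = 4) and lines through these means. The further LAMA1 probe set stays between 4.05 and 4.79 throughout, while both further COL7A1 probe sets climb from day 0 to day 7.

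The probe sets of a gene did not always move alike. The other LAMA1 probe set (axo11182-f_at) had group means from 4.18 to 4.45 and single values from 4.05 to 4.79, and its change from day 0 passed only in the denervated limb at day 1, at 0.27 ± 0.11 (adjusted p = 0.0442). It had no called change on the days when the probe set that stands for LAMA1 (axo11181-f_at) rose, so that the rises of LAMA1 rest on 1 probe set. Which part of the transcript each probe set matches was not examined here.

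The other 2 COL7A1 probe sets both rose in all 9 comparisons with day 0. For axo10788-r_at the level in the uninjured flank was 6.08, 6.48, 6.31 and 6.31 and in the flank at day 7 10.04, 9.62, 10.15 and 10.01, a rise of 3.66 ± 0.14 (12.6-fold). For axo10791-f_at the same groups had 5.24, 5.51, 5.39 and 5.03 and then 6.99, 6.85, 6.94 and 7.18, a rise of 1.70 ± 0.13 (3.24-fold). Their rises in the innervated limb by day 7 were 3.57 ± 0.14 and 2.15 ± 0.13, and in the denervated limb 3.19 ± 0.14 and 1.67 ± 0.13. The direction was thus shared by the 3 COL7A1 probe sets, and the size and timing were not. By day 1 the innervated limb had 51.1% of its day 7 log2 rise with axo10787-f_at, the probe set that stands for COL7A1, 34.7% with axo10788-r_at and 25.1% with axo10791-f_at. By day 3 the flank had 88%, 82.4% and 49.6% of its rise, and its step from day 1 to day 3 was 0.12 ± 0.13 with axo10791-f_at and not called (adjusted p = 0.567).

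Before injury, neither of these COL7A1 probe sets was called between limb and flank (0.43 ± 0.14, adjusted p = 0.0692, and 0.03 ± 0.13, adjusted p = 0.941), and none of their differences of changes between limb and flank passed. At day 7 axo10791-f_at was higher in the innervated than in the denervated limb by 0.48 ± 0.13 (adjusted p = 0.0458), with 6.87, 7.72, 7.75 and 7.55 against 7.16, 6.75, 7.16 and 6.9, an overlap through innervated replicate 1. It was also higher in the innervated limb than in the flank at day 7 by 0.48 ± 0.13 (adjusted p = 0.0123). For axo10788-r_at the nerve difference at day 7 was 0.38 ± 0.14 (adjusted p = 0.202). Over all 7 probe sets 52 of 63 changes from day 0 passed as rises and 0 as falls, and 2 of 21 nerve comparisons passed. These counts take several probe sets of the same gene. Of all probe sets, 11.5% to 20% rose in a comparison with day 0, and of named genes with 1 probe set each 13.6% to 25% fell. Both nerve calls were at day 7, where 0.804% of all probe sets were higher in the innervated limb.

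Among each other, the 4 genes were alike over the 11 group means to different degrees. COL7A1 had r = 0.93 with COL17A1, 0.921 with COL4A5 and 0.811 with LAMA1, and COL17A1 had 0.888 with COL4A5 and 0.626 with LAMA1. COL4A5 and LAMA1 had r = 0.611. Within groups, where the time course is removed, the deviations of LAMA1, COL4A5 and COL7A1 had correlations from 0.429 to 0.441 over the 44 arrays, and COL17A1 from −0.077 to 0.138 with the other 3. This split held only for the probe sets that stand for the genes. COL17A1 had 0.469 with axo11182-f_at of LAMA1, and 0.429 and 0.194 with axo10788-r_at and axo10791-f_at of COL7A1. Other pairs of probe sets between LAMA1, COL4A5 and COL7A1 had −0.084 to 0.293. Values of an array share its RNA and normalization. Flank day 0 replicate 1 was lowest of its group in LAMA1 (3.5) and COL7A1 (5.99), shared the lowest COL4A5 value (6.49) and was highest in COL17A1 (12.26). The correlations within groups were not recomputed without it.

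The named genes most like each member were those with the highest correlation over the same 11 group means. For LAMA1 they were TGFBI (r = 0.994), PFKL (0.981), SNX6 (0.973), MATR3 (0.97) and HDAC2 (0.968), and for COL4A5 COL11A1 (0.97), FAT1 (0.962), CRABP2 (0.961), HTRA1 (0.959) and PTPRS (0.953). For COL7A1 they were COL28A1 (0.987), CHST2 (0.984), DSP (0.982), NTF3 (0.98) and SULF1 (0.972). For COL17A1 they were LOXL2 (0.984), PLBD1 (0.976), LGALS9 (0.968), SPARC (0.966) and CD53 (0.966), the last of which is known as a surface protein of leukocytes. The group means of SNX6 spanned only 9.24 to 9.57 and those of MATR3 12.6 to 12.97, whereas TGFBI spanned 10.24 to 13.8 and COL28A1 5.38 to 10.69.

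**Figure D4:**
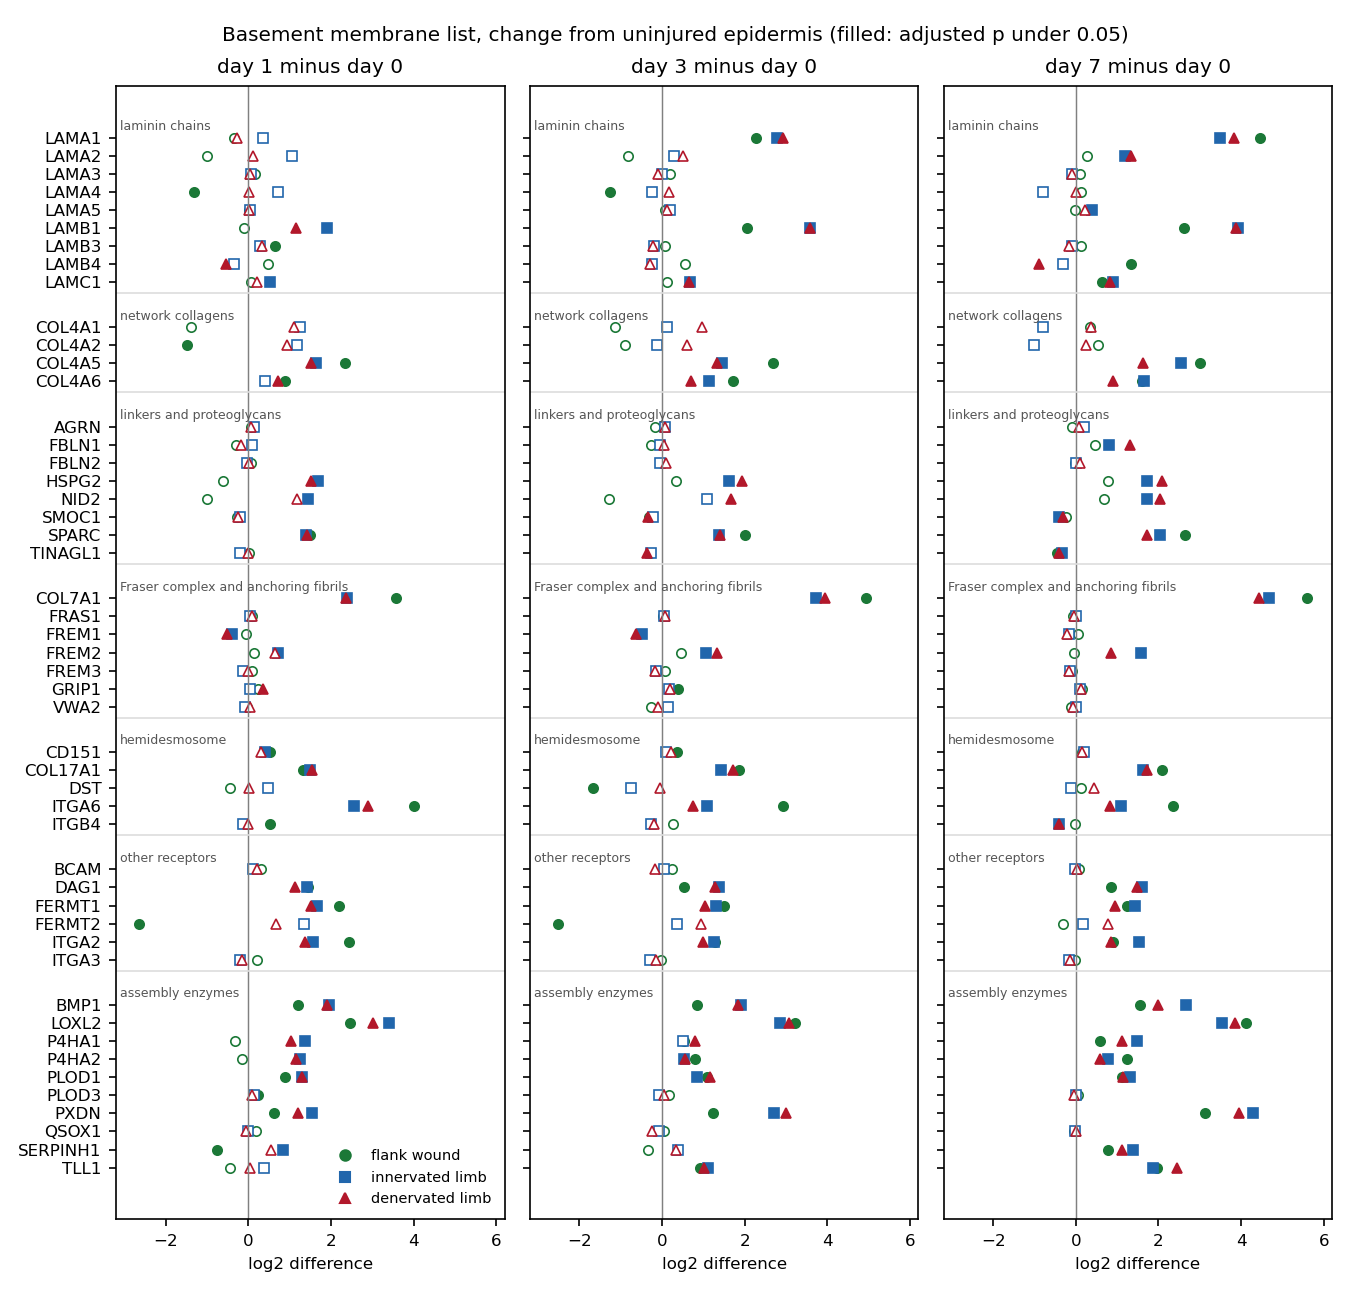
Log2 change from uninjured epidermis (horizontal axes) at days 1, 3 and 7 for the 49 measured genes of a basement membrane list, by class, with a symbol for each course and filled symbols for an adjusted p under 0.05 (n = 4 arrays a group). LAMA1, LAMB1, COL4A5, COL7A1, COL17A1, LOXL2 and PXDN lie well to the right at day 7 in all 3 courses. LAMA3 and FRAS1, whose group means all lay below the 25th percentile of all values (4.08), stay near 0.

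The other genes of the basement membrane and its anchors moved upward more often than downward. The 4 members and this list were chosen with earlier results of these data known, so their shares are not set against each other. Of 45 further measured genes of a basement membrane list, 18, 16 and 22 rose and 1, 1 and 3 fell in the innervated limb at days 1, 3 and 7. In the denervated limb 15, 18 and 21 rose and 2, 3 and 4 fell, and in the flank 14, 15 and 17 rose and 4, 6 and 1 fell. Over named genes with 1 probe set each, 15.7%, 14.4% and 14.6% rose and 24%, 14.4% and 15.5% fell in the innervated limb. In the denervated limb 14.9%, 14.4% and 14.7% rose and 23.3%, 15.1% and 15.2% fell, and in the flank 19.5%, 12.6% and 12.4% rose and 25%, 16.4% and 13.6% fell. In the flank at day 1 the count of list genes that fell, members included, was 4, and it was 9 without flank day 0 replicate 1 and 2 without replicate 3 or replicate 4. The median change of the 45 was 0.47, 0.16 and 0.21 in the innervated limb, 0.32, 0.34 and 0.44 in the denervated limb and 0.08, 0.17 and 0.28 in the flank, where the median over all probe sets lay between −0.04 and 0.05.

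Of the laminin chains, LAMB1 and LAMC1, the beta and gamma chains that pair with LAMA1 in mammals, rose at day 7 in all 3 courses. LAMB1 had changes of 3.92 ± 0.36, 3.88 ± 0.36 and 2.63 ± 0.36 in the innervated limb, denervated limb and flank, and LAMC1 0.89, 0.82 and 0.63 (SE 0.09). LAMA3 and LAMB3, chains of the laminin under mammalian hemidesmosomes, had day 7 changes between −0.17 and 0.12, none of which passed. Day 7 does not stand for the earlier days in LAMB3. Its mean in the flank was 6.03 uninjured and 6.66 at day 1. In the limb it was 6.21 uninjured, and 6.49 (innervated) and 6.53 (denervated) at day 1. The LAMA3 group means (3.68 to 3.88) lay below the 25th percentile of all values (4.08). At that level the height above background is not known, so its flat course does not show that the transcript was unchanged. Like LAMA1, LAMB1 and LAMC1 were higher in the innervated limb than in the flank at day 1 (1.96 ± 0.36 and 0.52 ± 0.09, adjusted p = 0.000654 and 0.000571) and at day 3 (1.47 ± 0.36 and 0.60 ± 0.09, adjusted p = 0.0079 and 4.39e-05). At day 7 the limb and flank means were 12.81 and 11.58 for LAMB1 and 10.28 and 9.95 for LAMC1, but 8.32 and 8.68 for LAMA1. At day 1 the limb mean was also above that of the flank for LAMA2 (6.58 against 4.95) and LAMA4 (6.51 against 4.94). For LAMA3, LAMA5, LAMB3 and LAMB4 it was below.

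Of the type IV collagen chains, COL4A6 rose at day 7 in all 3 courses, by 1.65 ± 0.26, 0.89 ± 0.26 and 1.60 ± 0.26. COL4A1 and COL4A2, the chains of the most widespread type IV network, had no called rise in the 9 comparisons with day 0, and COL4A2 fell in the flank at day 1 (−1.49 ± 0.59, adjusted p = 0.0405). Both were lower in the innervated limb than in the flank at day 7 (−2.51 ± 0.65 and −2.64 ± 0.59, adjusted p = 0.00965 and 0.0025), opposite in direction to COL4A5. The nerve difference of COL4A6 at day 7, 0.76 ± 0.26, did not pass (adjusted p = 0.161).

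Of the genes of hemidesmosomes, ITGA6, the integrin alpha chain, rose in all 9 comparisons and most at day 1, by 2.56 ± 0.26, 2.88 ± 0.26 and 4.01 ± 0.26. Its partner ITGB4 rose in the flank at day 1 (0.53 ± 0.15) and fell in both limbs at day 7 (−0.42 ± 0.15 and −0.40 ± 0.15, adjusted p = 0.0341 and 0.0415). Before injury ITGA6 was higher in limb than in flank (1.29 ± 0.26, adjusted p = 0.00237), like COL4A5 and COL7A1 by the probe sets that stand for them. It was the only 1 of the 45 that was, where 1.9% of all probe sets were higher. The means of some list genes were lower in the uninjured limb, among them SERPINH1 (8.97 against 9.98) and P4HA1 (9.42 against 10.32). In the class that holds COL7A1, FREM2, a protein of the Fraser complex at the epidermal basement membrane, rose in the limbs at day 7 (1.58 ± 0.27 and 0.85 ± 0.27), with −0.04 ± 0.27 in the flank, and the difference of changes between innervated limb and flank passed (1.62 ± 0.38, adjusted p = 0.00862). The FREM2 means of the uninjured limb (3.72), the uninjured flank (3.90) and the flank at day 7 (3.86) lay below the 25th percentile of all values (4.08). At that level the height above background is not known, so a change in the flank may have been missed. FREM1 fell in both limbs at days 1 and 3 and in the flank at day 3. FRAS1 had no called change, but its group means (3.27 to 3.47) lay near the 5th percentile of all values (3.33), so a change may have been missed.

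The genes for assembly and crosslinking of matrix proteins included some of the largest rises of the list. LOXL2, a lysyl oxidase, rose at day 1 by 3.40 ± 0.31, 3.02 ± 0.31 and 2.46 ± 0.31 and at day 7 by 3.53 ± 0.31, 3.85 ± 0.31 and 4.11 ± 0.31. PXDN, the peroxidasin that crosslinks type IV collagen, rose at day 7 by 4.29 ± 0.23, 3.95 ± 0.23 and 3.14 ± 0.23. BMP1, a protease that processes laminin and type VII procollagen, rose at day 7 by 2.66 ± 0.26, 1.99 ± 0.26 and 1.56 ± 0.26. Of 10 such genes measured, among them SERPINH1, which encodes a chaperone and no enzyme, 8 rose at day 7 in each of the 3 courses.

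Between innervated and denervated limb, limma called 0 of the 45 further genes on day 1, 0 on day 3 and 0 on day 7, with 4, 2 and 7 of them at an unadjusted p under 0.05. The shares of all probe sets at that unadjusted threshold were not computed. COL4A5 was thus the only gene of the 49 called for the nerve contrast at day 7 by its probe set of highest mean, which is 2.04% of the list, near the 1.7% of all probe sets called in either direction.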

How the data were processed

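Epidermis RNA of 44 animals was hybridised to an axolotl Affymetrix array, and the values are log2 expression levels per probe set as the authors deposited them in the series table. RMA and limma are listed, with no step or order, per the submitters' processing notes. The table held 20080 probe sets, 45 controls were left out, and the other 20035 were tested in a single linear model (limma 3.58.1, run under R 4.3.3) that gave each of the 11 groups its mean and left 33 residual degrees of freedom. P-values are two-sided and adjusted by Benjamini-Hochberg over the 20035 probe sets of a comparison, with 0.05 as the threshold. Over probe sets the median SE was 0.123 where 2 groups were compared and 0.174 where 4 were, and the number of arrays limits this precision. The ± values in the text are these standard errors, and intervals are 95%. A gene stands by its probe set of highest mean over all arrays. Named genes are the members, the genes of the basement membrane list, the markers and, for each member, the 5 named genes of highest correlation over group means. The members and lists were chosen with earlier results of these data known. The model was tested on simulated data. Replicate numbers were not used as pairs. Alternatives covered the arrays fitted, normalization, dim probe sets, array weights, probe sets, thresholds and each array left out.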

Additional observations from a re-analysis of the deposited data

Results flagged for a closer look

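In 5 of 77 groups of 4 arrays, over the 7 probe sets, a single array stood far from the other 3, and chance alone flags about 1 in 20 groups. These were COL17A1 in the innervated limb at day 1 (replicate 4, 13.29), COL7A1 axo10788-r_at in the innervated limb at day 7 (replicate 1, 10.04), COL7A1 axo10791-f_at in the denervated limb at day 3 (replicate 3, 6.22), and the flat LAMA1 probe set axo11182-f_at in the denervated limb at day 3 (replicate 4, 4.79) and the innervated limb at day 1 (replicate 1, 4.4).

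In 7 of 56 tests the change differed between courses, in each case between a limb and the flank and with the smaller rise in the limb. In such comparisons of limb and flank 0.938% to 2.43% of all probe sets were called downward. For COL4A5 the limb minus flank differences of the change were −1.2275 at day 3 with nerves, and −1.355 and −1.3775 at days 3 and 7 without. For COL7A1 they were −1.1825 and −1.2125 at days 1 and 3 with nerves, and −1.205 and −1.16 at days 1 and 7 without. All 7 contain the day 0 difference between limb and flank, and for COL7A1 the other 2 probe sets had no called difference.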

How the results depend on the processing

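Of 150 results, 18 were counts of list genes and the others were differences of single genes. A difference was held as kept if it stayed on its side of the threshold. Its sign was checked only where it was called in either fit. A count was held as kept if it stayed within a set factor. In this sense 150 were kept after quantile normalization and with a mean-variance trend and robust spread, 148 with each array centred on its median and 147 with array weights. Without the dimmest 25% of probe sets 146 were kept, without the 3 arrays of highest muscle signal 146, and with only the arrays compared 136. Same-numbered arrays of different groups had median residual correlations of 0.007 to 0.068, against −0.012 for other pairs. Of 44 arrays, 17 had their best match in an array of the same number. The number expected without pairing was not computed, so these values do not settle whether same-numbered arrays share a factor. The labels call the arrays biological replicates and name no pairs, and the numbers were not taken as pairs. With the replicate number as a block in the fit 148 of 150 were kept in the same sense. The count of list genes that fell became 3 in the innervated limb at day 3 (from 1) and 1 in the denervated limb at day 1 (from 2).

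The LAMA1 rises depended on the probe set. With axo11182-f_at they were not called at days 3 and 7 in the innervated limb (0.2425 and 0.1325), the denervated limb (0.2725 and 0.1975) and the flank (0.12 and 0.1725). Among results called with either probe set, the sign turned for the denervated day 1 change (0.27, adjusted p = 0.0442), the denervated step from day 3 to day 7 (−0.075), the flank step from day 1 to day 3 (−0.03) and the innervated minus flank difference at day 1 (−0.105). The nerve difference of COL7A1 at day 7 was called with axo10791-f_at (0.48).

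Fitted on the 8 uninjured arrays alone, the limb over flank differences were not called for COL4A5 (1.115, adjusted p = 0.0788) or COL7A1 (1.1225, adjusted p = 0.257), nor was that of COL7A1 with its other probe sets (0.4325 and 0.03). The COL7A1 differences of changes between limb and flank, for innervated days 1 and 3 and denervated days 1 and 7, were not called with only the arrays compared (−1.1825, −1.2125, −1.205 and −1.16), with axo10788-r_at (−0.4, −0.58, −0.4575 and −0.4675), with axo10791-f_at (−0.1825, 0.245, −0.1575 and −0.0275, the second with its sign turned) or with the mean of the probe sets (−0.5883, −0.5158, −0.6067 and −0.5517). The first was also not called without the 3 arrays of highest muscle signal (−1.2125). That of COL4A5 for denervated day 7 was not called with only the arrays compared (−1.3775, adjusted p = 0.0502). Fewer arrays enter the fits of the arrays compared, and the cause of the other shifts was not tested.

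With 1 array left out in turn, the COL4A5 nerve difference at day 7 ranged from 0.7458 to 1.0258, and the COL4A5 difference of changes for denervated day 1 from −1.0133 to −0.72. The COL7A1 differences of changes ranged from −1.4117 to −0.755, −1.4417 to −0.785 and −1.1692 to −0.5125 in the innervated limb at days 1, 3 and 7, and from −1.4342 to −0.7775, −1.2267 to −0.57 and −1.3892 to −0.7325 in the denervated limb. That of COL17A1 for innervated day 7 ranged from −0.56 to −0.4. Counts of list genes that fell ranged from 1 to 2, 1 to 4 and 1 to 3 in the innervated limb, 1 to 3 and 2 to 4 in the denervated limb at days 1 and 7, and 2 to 9 and 3 to 8 in the flank at days 1 and 3.

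The counts of list genes that fell are small. In the innervated limb they were 1, 1 and 3 at days 1, 3 and 7. They became 2 and 3 at days 1 and 3 with centred arrays, 2 at day 3 with only the arrays compared, and 1 at day 7 without dim probe sets or at an adjusted p under 0.01. In the denervated limb they were 2, 3 and 4. They became 1 at day 1 with only the arrays compared, array weights, no high-muscle arrays or p under 0.01, 1 at day 3 with only the arrays compared or without dim probe sets, and 2 at day 7 without dim probe sets or at p under 0.01. In the flank they were 4, 6 and 1. They became 8 with array weights and 2 without the high-muscle arrays at day 1, 3 at day 3 at p under 0.01, and 0 at day 7 without dim probe sets. With a log2 difference of at least 1 required they were 0 in all limb comparisons and at day 7 in the flank and 3 at day 3 in the flank, and the rises in the flank at day 1 went from 17 to 10. No detection calls were used, so how far a dim probe set stands above background is not known here.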
